A study of Mus musculus with 10 samples.

Results

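The regions described here are the ATAC-seq peaks of mouse intestinal innate lymphoid cells that lie at the ends of protein-coding genes, promoters included. ATAC-seq reads mark DNA that the Tn5 transposase can reach. A peak was counted as a gene-end peak where its nearest edge lay within 1000 bp of the start or end coordinate of a protein-coding gene body on GRCm38, outside chromosome Y. This rule took 10847 of 36251 peaks, or 29.9%. Of the remainder, 14149 lay inside genes, 7572 lay between genes within 50 kb of one, and 3683 lay farther away. The rule used position alone and no measured value.

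Innate lymphoid cells (ILCs) are lymphocytes without rearranged antigen receptors. RORgt is the nuclear receptor that defines group 3 ILCs, which make interleukin-17 and interleukin-22, while T-bet, encoded by Tbx21, drives the interferon-gamma and cytotoxic programme of group 1 cells, and RORa, encoded by Rora, is a related nuclear receptor active in group 2 and group 3 cells. Promoters of housekeeping genes are commonly rich in CpG dinucleotides and open in most cell types, whereas lineage-restricted accessibility is more often found at distal enhancers.

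The 10 libraries came from C57BL/6 small intestinal lamina propria. All animals, Controls included, carried Id2creERT2, a tamoxifen-inducible Cre driven from the Id2 gene that ILCs express, together with a tdRFP reporter, and were given a tamoxifen diet. The RORgt-KO group (2 libraries) also carried loxP-flanked RORgt alleles. The RORgt-Tbet-KO group (2 libraries) carried loxP-flanked RORgt and Tbx21 alleles, and the RORgt-RORa-KO group (3 libraries) loxP-flanked RORgt and Rora alleles. The Control group (3 libraries) carried Id2creERT2 and tdRFP, with no loxP-flanked gene in its labelled genotype. A replicate was 1 mouse or a pool of 2 or 3 mice, and the age of the animals and the markers used for sorting are not stated in the sources at hand. Reads in peaks ranged from 2271585 to 5047436 per library. They numbered 3388680 and 2630478 in RORgt-KO libraries and 4580787 and 5047436 in RORgt-Tbet-KO libraries. RORgt-RORa-KO replicates 1, 2 and 3 had 2825693, 2271585 and 4733829, and Control had 3381784, 3361390 and 2518233. Both RORgt-Tbet-KO libraries were thus deeper than every RORgt-KO and Control library, and the part of depth in the results was not tested. No gene-end peak was found for Rora or Tbx21, so these peaks do not check the deletions. Gene-end peaks were present at the ILC genes Id2, Il7r, Il2rg and Kit, and the start of Kit had a mean level of 8.69 over the 10 libraries. None of 7 B cell marker genes had a gene-end peak, against 3 of 8 T cell, 1 of 7 myeloid, 3 of 8 epithelial and 1 of 8 stromal and endothelial marker genes. In bulk libraries, fewer cells with an open site and less opening per cell cannot be told apart.

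Of the protein-coding genes outside Y, 11193 of 21640 had a gene-end peak, which was 51.7%. The peak overlapped the end coordinate itself in 8192 cases, or 75.5% of gene-end peaks. Transcription strand was known for 17273 genes, and it placed 8222 peaks (75.8%) at a gene start and 554 (5.11%) at a 3′ end only, leaving 2071 (19.1%) unplaced. A gene-end peak can sit at the ends of neighbouring genes at once, and 1759 peaks were within reach of at least 2 genes. Near the limit of the rule, the 212 peaks at 901 to 1000 bp had a median level of 5.89 and the 199 peaks at 1001 to 1100 bp a median level of 5.95.

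The promoters below are shown because the results below turn on them or, for Eif4ebp2, because its peak varied least. They are the RefSeq GRCm38.p6 sequences from 250 bases before to 50 after the transcription start, written 5′ to 3′ in the direction of transcription. Capitals mark a T-box word (AGGTGTGA, the kind of sequence T-bet binds), a ROR element (TAGGTCA, the kind bound by RORgt and RORa) or an ETS word (CCGGAAG), each on either strand.
Nkg7, chr7:43436888-43437187, plus strand: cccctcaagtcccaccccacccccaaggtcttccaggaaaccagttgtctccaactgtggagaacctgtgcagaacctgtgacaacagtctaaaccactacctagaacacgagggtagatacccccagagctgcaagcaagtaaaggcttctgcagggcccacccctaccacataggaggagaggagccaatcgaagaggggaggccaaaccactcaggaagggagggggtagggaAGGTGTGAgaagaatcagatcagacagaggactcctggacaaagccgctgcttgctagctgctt
Samd3, chr10:26229457-26229756, plus strand: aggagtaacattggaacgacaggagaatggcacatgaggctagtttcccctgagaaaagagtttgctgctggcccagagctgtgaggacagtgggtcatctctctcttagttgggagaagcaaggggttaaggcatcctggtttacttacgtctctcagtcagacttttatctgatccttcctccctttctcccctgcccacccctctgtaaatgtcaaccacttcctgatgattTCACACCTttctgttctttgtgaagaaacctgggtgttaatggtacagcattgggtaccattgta
Ifng, chr10:118440796-118441095, plus strand: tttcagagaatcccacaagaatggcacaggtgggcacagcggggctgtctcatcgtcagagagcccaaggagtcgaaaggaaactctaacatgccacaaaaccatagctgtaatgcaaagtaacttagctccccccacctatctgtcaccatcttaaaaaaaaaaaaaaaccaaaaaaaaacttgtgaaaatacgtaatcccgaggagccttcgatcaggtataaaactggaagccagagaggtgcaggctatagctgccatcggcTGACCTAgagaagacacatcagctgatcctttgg
Il23r, chr6:67491806-67492105, minus strand: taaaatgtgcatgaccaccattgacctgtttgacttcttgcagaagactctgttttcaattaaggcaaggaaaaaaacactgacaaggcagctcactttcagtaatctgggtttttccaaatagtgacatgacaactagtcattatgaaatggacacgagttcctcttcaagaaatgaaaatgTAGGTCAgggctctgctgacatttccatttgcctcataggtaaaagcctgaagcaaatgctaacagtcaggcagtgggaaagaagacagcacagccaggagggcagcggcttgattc
Il22, chr10:118204714-118205013, plus strand: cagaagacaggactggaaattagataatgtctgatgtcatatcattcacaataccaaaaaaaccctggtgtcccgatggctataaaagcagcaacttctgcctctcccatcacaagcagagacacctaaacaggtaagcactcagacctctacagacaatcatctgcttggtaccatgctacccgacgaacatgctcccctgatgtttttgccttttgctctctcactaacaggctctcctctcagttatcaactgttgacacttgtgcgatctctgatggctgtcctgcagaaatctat
Eif4ebp2, chr10:61452620-61452919, minus strand: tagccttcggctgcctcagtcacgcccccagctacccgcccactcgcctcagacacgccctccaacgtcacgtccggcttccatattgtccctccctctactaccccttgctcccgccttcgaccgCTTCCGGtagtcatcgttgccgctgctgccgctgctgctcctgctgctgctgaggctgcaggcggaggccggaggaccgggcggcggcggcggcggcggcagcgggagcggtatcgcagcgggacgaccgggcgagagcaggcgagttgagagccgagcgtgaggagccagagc
The Nkg7 and Samd3 promoters each held a T-box word just before the start, those of Ifng and Il23r held a ROR element, and that of Il22 held none of these words. Over all 16959 promoters at a gene end, 1.19% held the T-box word, 2.34% the ROR element and 12.7% the ETS word. A match is a string of letters and does not show binding.

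Gene-end peaks were wider and carried more reads than the other peaks. Levels here are log2 scaled reads per peak, as deposited. What each library was scaled by is not described in the sources at hand. The median level was 7.03 at gene ends, with quartiles of 5.96 and 7.94, against 5.45 at other peaks. The median width was 832 bp at gene ends and 394 bp elsewhere. Per kilobase of peak, the median level was 7.33 at gene ends and 6.83 elsewhere. Gene starts had the highest median per kilobase, 7.36, and 3′ ends had 6.99, close to the 6.91 of peaks inside genes. Starts shared by at least 2 genes, as at bidirectional promoters, reached 7.57 per kilobase.

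The share of each library's reads that fell in gene-end peaks was 49.9 and 50.9% in RORgt-KO libraries, 48.8 and 48.4% in RORgt-Tbet-KO libraries, 48.0, 46.0 and 49.8% in RORgt-RORa-KO, and 49.4, 47.5 and 49.7% in Control. The groups overlapped, and an exact permutation test over all 25200 assignments of the libraries found no difference past the threshold (p = 0.346). Peaks at 3′ ends took 1.12 and 1.06% of reads in RORgt-KO libraries, 1.19 and 1.23% in RORgt-Tbet-KO libraries, 1.19, 1.16 and 1.16% in RORgt-RORa-KO, and 1.08, 1.07 and 1.12% in Control. Both double knockouts lay above all RORgt-KO and Control libraries for this measure (exact permutation p = 0.0108, adjusted p = 0.0324 over the shares for all gene ends, gene starts and 3′ ends). The adjusted call was lost in 5 of the 10 refits that left out 1 library, with adjusted p of 0.118 without RORgt-Tbet-KO replicate 2, 0.0833 and 0.0762 without RORgt-RORa-KO replicates 2 and 3, and 0.0976 and 0.0571 without Control replicates 1 and 2. The split by strand was chosen after the data were seen, and no pairwise exact test can pass at these group sizes, where the smallest p is 0.1, or 0.333 for RORgt-Tbet-KO against RORgt-KO.

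**Figure D1:**
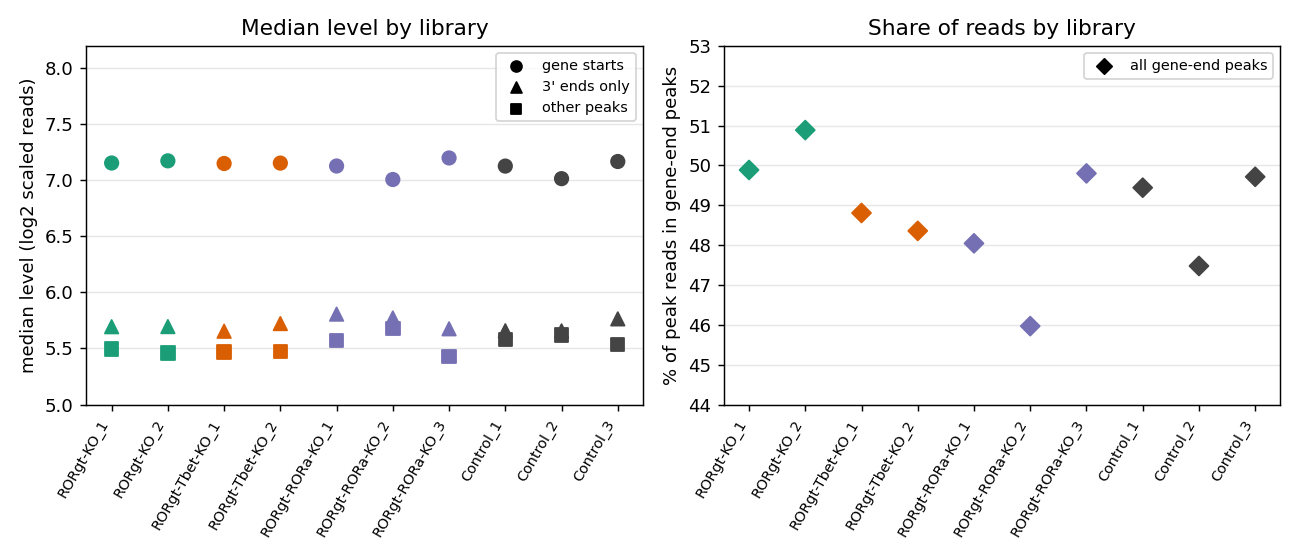
Median level of gene starts, 3′ ends and other peaks (left, log2 scaled reads, axis not from 0) and the share of reads in peaks that fell in gene-end peaks (right, %, axis not from 0), 1 point per library, coloured by group. The shares ran from 46.0 to 50.9% and the groups overlapped.

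Among the gene-end peaks with the highest levels, the start shared by Aasdhppt and Kbtbd3 had the highest mean level, 10.79, or 10.35 per kilobase, and ranged over 0.41 among the 10 libraries. Crem, a cAMP-responsive transcription factor, had a mean level of 10.53. The start of Zfp788, a zinc finger protein gene, had a mean level of 10.65 and a log2 change of -0.45 ± 0.15 in RORgt-RORa-KO against Control (SE; limma adjusted p = 0.02), and no other peak of the 5 highest passed against Control. Among the 25% of peaks with the highest mean levels, the start of Eif4ebp2, which encodes a binding protein of the translation factor eIF4E, varied least. Its levels were 7.91 and 7.88 in RORgt-KO libraries, 7.89 and 7.91 in RORgt-Tbet-KO libraries, 7.80, 7.85 and 7.96 in RORgt-RORa-KO, and 7.86, 7.96 and 7.90 in Control. The start of Rraga, a Rag GTPase of the mTORC1 pathway, ran from 8.49 to 8.71. No peak of 13 at housekeeping genes passed the test in any of the 6 comparisons. Across these comparisons, 0.240 to 15.0% of gene-end peaks and 1.14 to 31.2% of all peaks passed.

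Between groups, each peak was tested with limma over the 4 groups, and a peak is called changed where its p, adjusted by Benjamini-Hochberg over all 36251 peaks, was under 0.05. Replicates are separate mice or pools, so p-values reflect the spread between them. Among gene-end peaks, 1394 (12.9%) differed among the 4 groups by the moderated F test, against 30.7% of all peaks and 38.4% of the peaks that are not at gene ends. The share at gene ends was 7.76 and 7.63% without RORgt-Tbet-KO replicates 1 and 2, and 8.13 and 8.03% without Control replicates 1 and 2. Control had the highest mean of the 4 groups at 669 of the 1394 and the lowest at 508. RORgt-RORa-KO was lowest at 484 and RORgt-Tbet-KO highest at 375.

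In RORgt-KO against Control, 340 gene-end peaks changed (3.13%), against 12.3% of all peaks. Of these, 173 rose and 167 fell, or 1.59 and 1.54% of gene-end peaks, beside 5.19 and 7.12% of all peaks. In RORgt-Tbet-KO against Control, 1323 changed (12.2%), against 22.6% of all peaks, and 666 rose and 657 fell (background 11.3% each way). In RORgt-RORa-KO against Control, 1628 changed (15.0%), against 31.2% of all peaks, with 638 higher (background 15.1%) and 990 lower (background 16.1%). The 3 comparisons share the same Control libraries. The split of the RORgt-KO calls depended on the scaling and on 1 library: 50.9% were higher as reported, 60.4% with each library centred on the median of all peaks, 42.5% centred on gene-end peaks and 36.1% without RORgt-KO replicate 1. Centred on all peaks, 60.7% of the RORgt-Tbet-KO calls were higher, beside 50.3% as reported. The counts of calls also depended on single libraries. The RORgt-KO share was 0.894% without RORgt-KO replicate 1, 1.19% without RORgt-KO replicate 2, 1.95% without Control replicate 1 and 2.02% without Control replicate 2. Leaving out either RORgt-Tbet-KO library took the RORgt-Tbet-KO share to 2.91 or 2.92%, and it was 7.82% without Control replicate 1 and 6.51% without Control replicate 2. The RORgt-RORa-KO share was 9.79% without Control replicate 1 and 9.94% without Control replicate 2.

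The shares differed with the place of the peak. At gene starts, 2.03% changed in RORgt-KO libraries, 11.3% in RORgt-Tbet-KO and 13.2% in RORgt-RORa-KO, each against Control. At 3′ ends the shares were 14.1, 24.0 and 36.1% in the same order, near the 16.2, 27.0 and 38.2% of peaks away from gene ends. At starts shared by at least 2 genes they were 0.843, 9.80 and 10.5%. Peaks were also split into 4 classes of equal size by mean level, and the share was lower at gene ends than elsewhere in each class. In the highest class, 1.97% of 5217 gene-end peaks changed in RORgt-KO, against 16.1% of 3846 other peaks, and 15.6% changed in RORgt-RORa-KO, against 39.1%. The median spread within groups in that class was 0.20 at gene ends and 0.22 elsewhere (SD, log2). These shares are descriptions of peaks that share libraries, and the difference between classes of peaks was not tested.

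**Figure D2:**
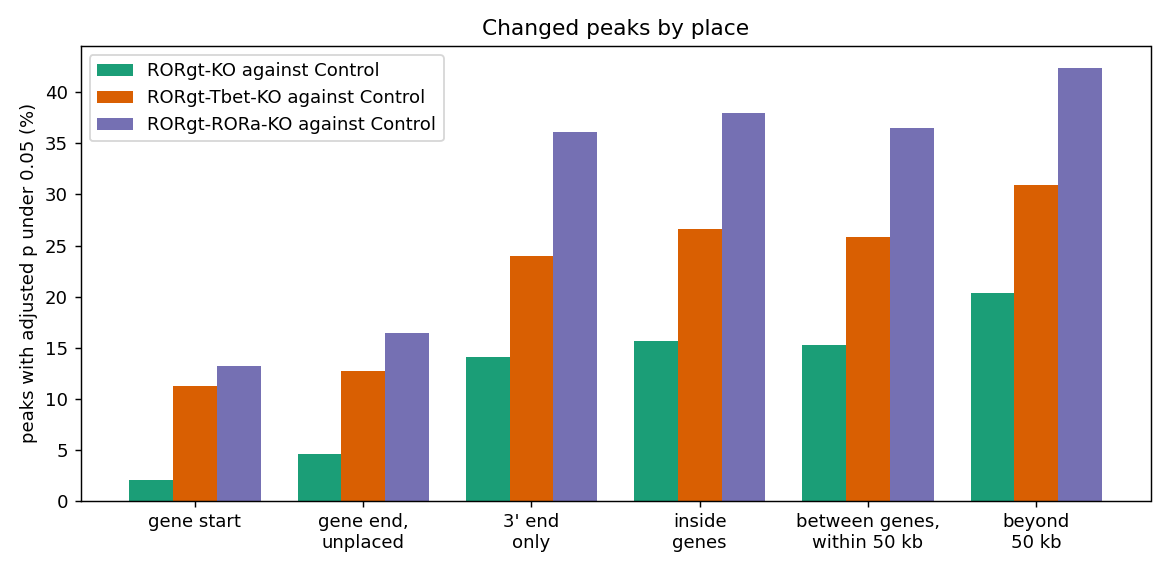
Percentage of peaks with adjusted p under 0.05 against Control (y axis from 0) in each of the 3 knockouts, by the place of the peak. The bars for gene starts stand at 2.03, 11.3 and 13.2%, and those for 3′ ends at 14.1, 24.0 and 36.1%.

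**Figure D3:**
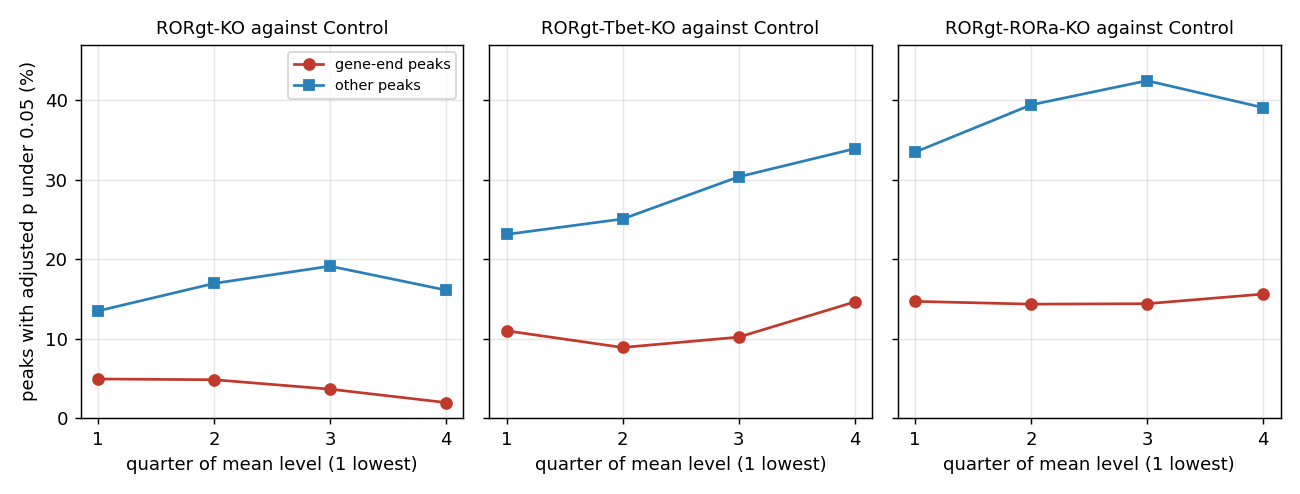
Percentage of peaks with adjusted p under 0.05 against Control (y axis from 0) in 4 classes of mean level with equal numbers of peaks, for gene-end peaks and other peaks. The line for gene-end peaks lies below that for other peaks in all 4 classes of the 3 comparisons.

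A change of at least 2-fold with a call was seen at 192 gene-end peaks in RORgt-KO (1.77%, beside 9.26% of all peaks), 357 in RORgt-Tbet-KO (3.29%, beside 14.5%) and 470 in RORgt-RORa-KO (4.33%, beside 20.4%), each against Control. For RORgt-Tbet-KO against RORgt-KO such changes numbered 19 (background 1.04%), for RORgt-RORa-KO against RORgt-KO 22 (background 1.17%), and between the double knockouts 101 (background 5.33%).

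The largest increase against Control, in each of the 3 comparisons that share these Controls, was at the start of Armt1, an acidic residue methyltransferase gene. It had levels of 5.61 and 6.08 in RORgt-KO libraries, 6.61 and 6.50 in RORgt-Tbet-KO libraries, 6.42, 6.77 and 6.61 in RORgt-RORa-KO, and 2.69, 2.96 and 3.85 in Control. All 7 knockout libraries lay above the Controls, whose peaks held 5 to 9 reads. The largest changes were taken only from peaks whose compared groups did not overlap, so this separation follows from the rule. The log2 change was 2.68 ± 0.35 in RORgt-KO (SE; limma adjusted p = 6.81e-06), 3.39 ± 0.35 in RORgt-Tbet-KO and 3.43 ± 0.31 in RORgt-RORa-KO. A peak 461 bp from an end of Fbxo32, a muscle-atrophy ubiquitin ligase subunit, rose by 2.40 ± 0.36, 2.99 ± 0.36 and 2.92 ± 0.32 in these groups. Near Tmem30c, a flippase subunit family member, the log2 rises were 2.44 ± 0.28, 2.95 ± 0.28 and 2.92 ± 0.25.

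The largest decrease in each of these comparisons lay at the start of Olfr175, an olfactory receptor gene, at chr16:58826745-58827405. Its levels were 4.99 and 4.97 in RORgt-KO libraries, 4.61 and 4.20 in RORgt-Tbet-KO libraries, 3.65, 4.82 and 4.09 in RORgt-RORa-KO, and 8.13, 8.57 and 7.62 in Control. No knockout library reached a Control, which the same rule required. The log2 change was -3.13 ± 0.35, -3.70 ± 0.35 and -3.92 ± 0.31 (SE; limma adjusted p = 9.53e-07, 2.83e-08 and 2.11e-10). A peak 518 bp from an end of Mrps28, a mitochondrial ribosomal protein gene, had log2 changes of -2.56 ± 0.30, -2.86 ± 0.30 and -3.27 ± 0.27. The start of Ednrb, an endothelin receptor, had levels of 6.96 and 7.17 in RORgt-KO libraries, 7.01 and 6.51 in RORgt-Tbet-KO libraries, 5.61, 5.63 and 5.43 in RORgt-RORa-KO, and 8.40, 9.04 and 8.52 in Control. RORgt-RORa-KO was lowest here, at -1.51 ± 0.23 against RORgt-KO (limma adjusted p = 0.000222). The start of Siglecf, a sialic acid receptor best known from eosinophils, had log2 changes of -2.10 ± 0.27, -1.89 ± 0.27 and -1.25 ± 0.24 against Control.

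**Figure D4:**
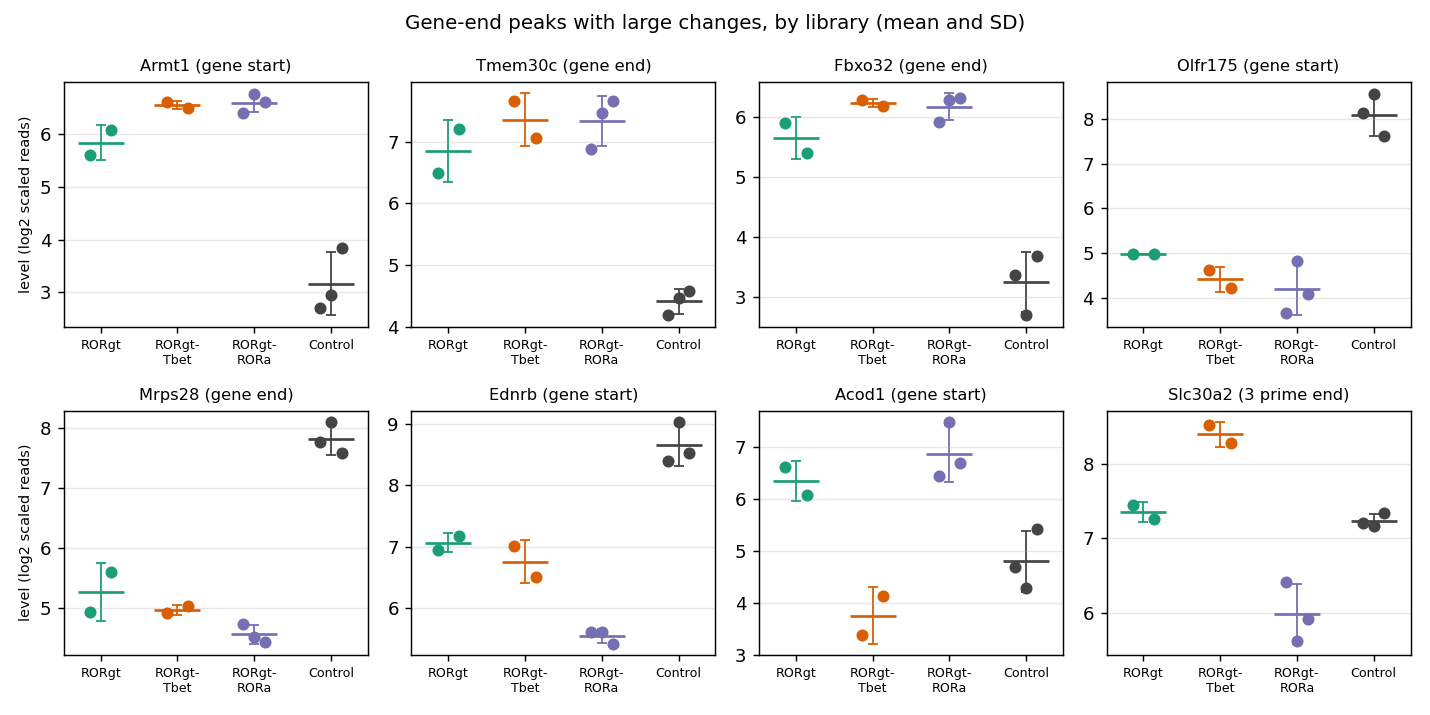
Levels (log2 scaled reads; axes not from 0) of 8 gene-end peaks with large changes, 1 point per library, with the group mean as a line and its SD as a bar. Armt1, Tmem30c and Fbxo32 are higher in every knockout library than in Control, and Olfr175, Mrps28 and Ednrb lower. The largest changes were taken only from peaks whose compared groups did not overlap.

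Type 1 ILC and NK cell genes come next. The gene lists here and below were chosen with earlier results of these data known, so their shares are descriptions and not a test. Of 27 listed genes, 18 had a gene-end peak, 19 peaks in all. In RORgt-KO against Control 6 rose and none fell (31.6%, beside 12.3% of all peaks), at Ccl5, Ifng, Il12rb2, Nkg7, Prf1 and Xcl1. In RORgt-RORa-KO against Control 12 rose and 1 fell (68.4%, beside 31.2%), that of the integrin gene Itga1, and the 12 included the granzyme genes Gzma and Gzmb and the death ligand gene Fasl. In RORgt-Tbet-KO against Control 5 rose, at Cxcr6, Nkg7, Prf1 and Xcl1, and 1 fell, at Ncr1 (31.6%, beside 22.6%). The directional backgrounds, higher and lower, are 5.19 and 7.12% of all peaks in RORgt-KO libraries, 11.3% each way in RORgt-Tbet-KO libraries, with 15.1 and 16.1% for RORgt-RORa-KO. Of all gene-end peaks, 3.13% were called in RORgt-KO, 12.2% in RORgt-Tbet-KO and 15.0% in RORgt-RORa-KO against Control. The list's median log2 change was 0.45 in RORgt-KO libraries, 0.21 in RORgt-Tbet-KO and 1.10 in RORgt-RORa-KO, beside 0.02, 0.01 and 0.02 over all peaks. Summed over the list, these peaks held 496 and 433 reads scaled to library size (RPM) in RORgt-KO libraries, 371 and 349 in RORgt-Tbet-KO libraries, 610, 577 and 620 in RORgt-RORa-KO, and 289, 301 and 304 in Control.

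The start of Nkg7, a granule protein of cytotoxic cells, lay at chr7:43436391-43437339. It had levels of 8.14 and 8.02 in RORgt-KO libraries, 7.03 and 7.03 in RORgt-Tbet-KO libraries, 8.72, 8.82 and 8.73 in RORgt-RORa-KO, and 5.83, 5.62 and 6.48 in Control. The 4 groups did not overlap. Against Control the log2 change was 2.10 ± 0.22, 1.05 ± 0.22 and 2.78 ± 0.19 (SE; limma adjusted p = 2.9e-07, 0.000803 and 2.52e-11). Against RORgt-KO, RORgt-Tbet-KO had a log2 difference of -1.05 ± 0.24 (limma adjusted p = 0.0199), and this call was lost without any 1 of their 4 libraries (log2 change -1.11 to -0.99, adjusted p 0.161 to 0.210).

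Ifng encodes interferon-gamma. Its start had levels of 6.19 and 5.94 in RORgt-KO libraries, 5.04 and 4.39 in RORgt-Tbet-KO libraries, 6.51, 6.77 and 6.81 in RORgt-RORa-KO, and 5.02, 4.96 and 5.0 in Control. RORgt-KO and RORgt-RORa-KO lay above Control, and RORgt-Tbet-KO did not. The log2 change was 1.07 ± 0.30 in RORgt-KO (limma adjusted p = 0.0167), -0.28 ± 0.30 in RORgt-Tbet-KO (0.554) and 1.71 ± 0.27 in RORgt-RORa-KO (1.53e-05). The RORgt-KO call was lost without either RORgt-KO library (0.196 and 0.0714). Prf1, the pore-forming protein perforin, had a log2 change of 1.44 ± 0.23 in RORgt-KO libraries, 0.72 ± 0.23 in RORgt-Tbet-KO and 1.80 ± 0.20 in RORgt-RORa-KO, all called. The chemokine gene Xcl1 rose by 1.86 ± 0.25, 0.99 ± 0.25 and 2.20 ± 0.22. The RORgt-Tbet-KO calls of these 2 genes were lost without RORgt-Tbet-KO replicate 2, at log2 changes of 0.90 for Prf1 and 0.96 for Xcl1. That of Prf1 was also lost without RORgt-Tbet-KO replicate 1 or Control replicate 2, at 0.54 each.

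The start of Ncr1, which encodes the receptor NKp46, was not called in RORgt-KO or RORgt-RORa-KO against Control. Its levels were 7.48 and 7.03 in RORgt-KO libraries, 6.67 and 6.59 in RORgt-Tbet-KO libraries, 7.61, 7.55 and 7.33 in RORgt-RORa-KO, and 7.80, 7.68 and 7.26 in Control. The RORgt-Tbet-KO libraries lay below all others, with a log2 change of -0.95 ± 0.21 against Control (limma adjusted p = 0.00182) and of -0.63 ± 0.23 against RORgt-KO, which did not pass (0.226).

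The 3 T cell marker gene-end peaks together held 59.0 and 49.8 RPM in RORgt-KO libraries, 64.0 and 84.0 in RORgt-Tbet-KO libraries, 91.0, 89.8 and 84.7 in RORgt-RORa-KO, and 54.1, 50.3 and 59.6 in Control. The RORgt-KO and Control libraries overlapped, and both double knockouts lay above them. The peak at the 3′ end of Cd3e rose by 1.06 ± 0.29, 1.85 ± 0.29 and 2.07 ± 0.26, whereas the start of Cd5 had log2 changes of -2.39 ± 0.63, -2.95 ± 0.63 and -2.07 ± 0.56. The RORgt-KO call of Cd3e was lost without either RORgt-KO library or Control replicate 1 (0.93, 1.20 and 0.89), and that of Cd5 without RORgt-KO replicate 1 (-1.62) or Control replicate 1 (-2.21). The 5 other listed T cell genes, Cd3g, Cd6, Cd28, Cd40lg and Cd8a, had no gene-end peak. The 3 epithelial peaks held 118 RPM in each RORgt-KO library, 86.0 and 91.3 in RORgt-Tbet-KO libraries, 86.7, 89.8 and 96.1 in RORgt-RORa-KO, and 74.8, 70.5 and 78.6 in Control, and that of Lgr5 had a log2 change of 0.67 ± 0.18 in RORgt-KO, a call lost without either RORgt-KO library (0.71 and 0.63). The part of these cell types in the results was not tested.

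Type 3 ILC genes had calls in both directions. Of 18 listed genes, 13 had 17 gene-end peaks. Against Control, 2 rose and 1 fell in RORgt-KO libraries, 5 rose and 2 fell in RORgt-Tbet-KO, and 3 rose and 3 fell in RORgt-RORa-KO, with list medians of 0.09, 0.48 and -0.05. That is 17.6, 41.2 and 35.3% of the list, beside 12.3, 22.6 and 31.2% of all peaks and 3.13, 12.2 and 15.0% of gene-end peaks. A peak 604 bp from the start of Il17f, the gene of interleukin-17F, had levels of 5.71 and 6.32 in RORgt-KO libraries, 6.29 and 6.33 in RORgt-Tbet-KO libraries, 4.39, 4.52 and 4.84 in RORgt-RORa-KO, and 7.77, 8.07 and 7.64 in Control. All 7 knockout libraries were below Control, and RORgt-RORa-KO was lowest. The log2 change was -1.81 ± 0.27, -1.52 ± 0.27 and -3.24 ± 0.24 (SE; limma adjusted p = 3.44e-05, 0.000151 and 5.96e-11).

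Il23r encodes a chain of the interleukin-23 receptor, and its start fell in RORgt-RORa-KO alone among the 3 knockouts. Its levels were 7.65 and 7.39 in RORgt-KO libraries, 7.85 and 7.66 in RORgt-Tbet-KO libraries, 6.07, 5.86 and 6.30 in RORgt-RORa-KO, and 7.77, 7.86 and 7.17 in Control. The difference itself was called, at -1.44 ± 0.23 against RORgt-KO (limma adjusted p = 0.000341) and -1.68 ± 0.23 against RORgt-Tbet-KO (8.94e-06). The start of Il22 had levels of 6.49 and 5.35 in RORgt-KO libraries, 7.32 and 7.03 in RORgt-Tbet-KO libraries, 4.94, 5.63 and 5.13 in RORgt-RORa-KO, and 6.97, 6.58 and 6.53 in Control. It fell by 1.46 ± 0.27 on the log2 scale in RORgt-RORa-KO against Control (limma adjusted p = 0.000115). The 2 RORgt-KO libraries were far apart, and their change of -0.77 ± 0.30 did not pass (0.0951). Cd93, a C-type lectin-like receptor gene, had levels of 6.96 and 6.72 in RORgt-KO libraries, 5.0 and 5.39 in RORgt-Tbet-KO libraries, 6.16, 6.60 and 6.46 in RORgt-RORa-KO, and 6.60, 7.19 and 6.46 in Control, and the RORgt-Tbet-KO libraries were the low ones. The difference of -1.64 ± 0.29 from RORgt-KO was called, and was lost without RORgt-KO replicate 1 (-1.52) or RORgt-Tbet-KO replicate 1 (-1.45).

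Peaks near the 3′ ends of cytokine receptor genes of this list rose in all 3 knockouts. The peak 320 bp from the 3′ end of Il1r1, an interleukin-1 receptor, had levels of 7.07 and 7.21 in RORgt-KO libraries, 7.96 and 7.69 in RORgt-Tbet-KO libraries, 7.35, 6.97 and 7.59 in RORgt-RORa-KO, and 6.30, 6.46 and 6.23 in Control. Every knockout library was above Control. The log2 change was 0.80 ± 0.22, 1.49 ± 0.22 and 0.97 ± 0.19, all called. The 3′ peak of Il18r1, an interleukin-18 receptor, rose by 0.63 ± 0.20, 0.80 ± 0.20 and 1.30 ± 0.17. The RORgt-KO calls of both were lost without either RORgt-KO library, at 0.73 to 0.87 for Il1r1 and 0.53 to 0.73 for Il18r1. For Il18r1 that call was also lost without 1 of the RORgt-Tbet-KO libraries (0.63 each) or Control replicate 1 or 2 (0.64 and 0.58), and the RORgt-Tbet-KO call without RORgt-Tbet-KO replicate 2 (0.75).

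**Figure D5:**
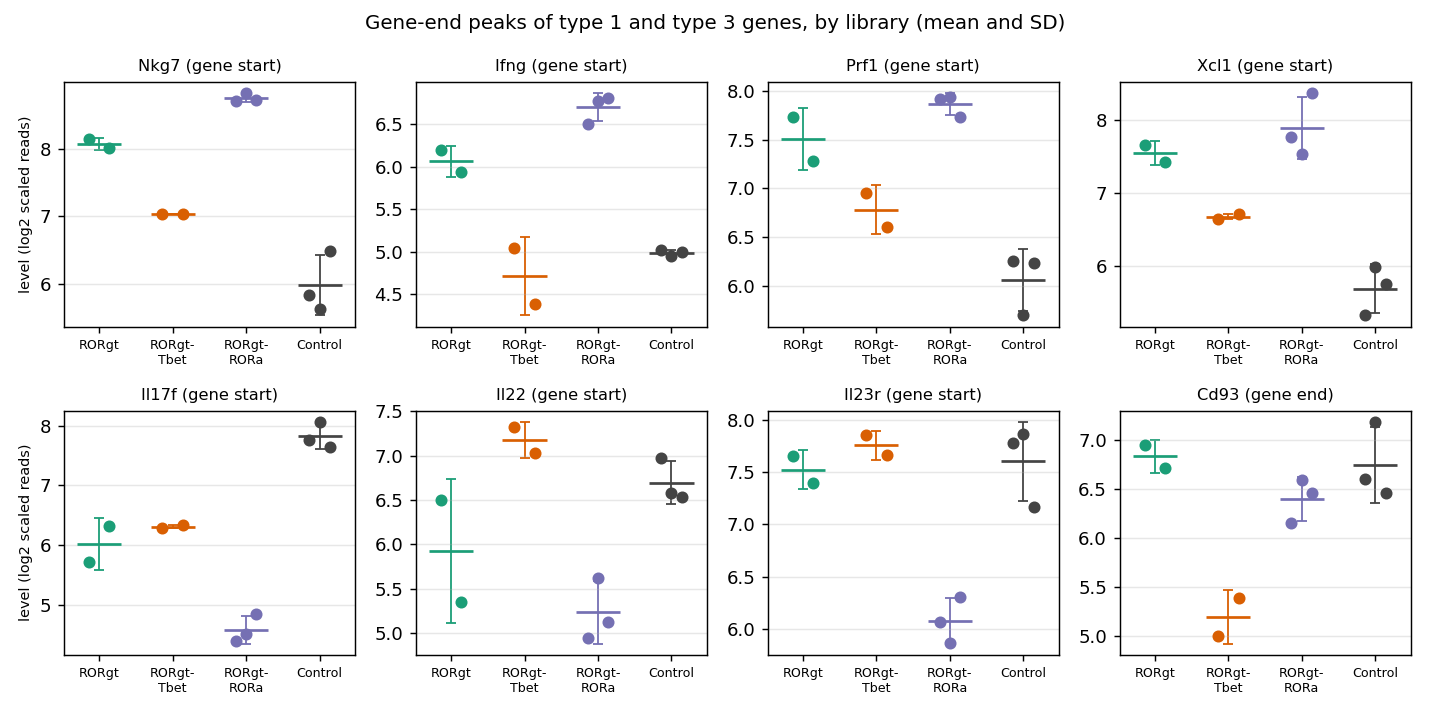
Levels (log2 scaled reads; axes not from 0) of gene-end peaks at 4 type 1 genes (top) and 4 type 3 genes (bottom), 1 point per library, with the group mean as a line and its SD as a bar. RORgt-RORa-KO is highest at Nkg7, Ifng and Prf1 and lowest at Il17f and Il23r.

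Among other lists, the gene-end peaks of lymphoid tissue inducer-like ILC3 genes (15 peaks) held 0 higher and 1 lower in RORgt-KO libraries, 5 higher and 2 lower in RORgt-Tbet-KO, and 1 higher and 3 lower in RORgt-RORa-KO against Control (6.67, 46.7 and 26.7% called, beside 12.3, 22.6 and 31.2% of all peaks). The lists share genes, so some peaks count in more than 1 list. Ltb and Tnfsf11 are also in the type 3 list and Arg1 in the type 2 list. Batf (type 3) and Gata3 (type 2) are also in the ILC transcription factor list. The start of Sox4, a transcription factor of lymphoid development, fell in all 3 knockouts against Control, with log2 changes of -0.62 ± 0.21, -0.87 ± 0.21 and -1.15 ± 0.18. The RORgt-KO call of Sox4 was lost without RORgt-KO replicate 1 (-0.35), Control replicate 1 (-0.63) or 2 (-0.54), either RORgt-Tbet-KO library or RORgt-RORa-KO replicate 1 (-0.62 each), and the RORgt-Tbet-KO call without RORgt-Tbet-KO replicate 1 (-0.83). Of 28 peaks at ILC transcription factor genes, 1 rose in RORgt-KO libraries, 6 rose and 1 fell in RORgt-Tbet-KO, and 4 rose and 3 fell in RORgt-RORa-KO. The share called was 3.57% in RORgt-KO libraries and 25% in each double knockout, beside 12.3, 22.6 and 31.2% of all peaks. For gene-end peaks the shares were 3.13, 12.2 and 15.0% in the same order. The start of Runx3, a factor of cytotoxic and innate lymphocytes, had a log2 change of 1.06 ± 0.22 in RORgt-Tbet-KO (limma adjusted p = 0.000777) and of 0.60 ± 0.20 in RORgt-RORa-KO (0.0191), the second lost without Control replicate 2 (0.49) or RORgt-RORa-KO replicate 1 or 3 (0.47 each). At circadian clock genes, some of them targets of ROR and REV-ERB receptors, 4 of 19 peaks fell in RORgt-RORa-KO and none rose. The falls were at Dbp, Hlf, Npas2 and Nr1d1. That is 21.1% lower, beside 9.13% of gene-end peaks and 16.1% of all peaks that fell in this comparison. No clock gene peak passed in RORgt-KO, and 1 rose and 2 fell in RORgt-Tbet-KO. The start of Hlf fell by 0.87 ± 0.20 on the log2 scale in RORgt-RORa-KO (limma adjusted p = 0.00115), and that of Nr1d1, which encodes REV-ERBa, had a log2 change of -0.60 (0.0204) that was lost without RORgt-RORa-KO replicate 2 (-0.49) or Control replicate 3 (-0.42).

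The type 2 list had 10 gene-end peaks. In RORgt-KO against Control 1 rose and 1 fell, in RORgt-Tbet-KO 1 rose and 1 fell, and in RORgt-RORa-KO 1 rose and 2 fell, which is 2, 2 and 3 of the 10, beside 12.3, 22.6 and 31.2% of all peaks. Among gene-end peaks the called shares were 3.13, 12.2 and 15.0%. The list medians were -0.07, -0.09 and -0.18. The rise in each was at the start of Hpgds, a prostaglandin D2 synthase gene, where the log2 change was 0.75 ± 0.19, 0.91 ± 0.19 and 1.09 ± 0.17. The Hpgds call in RORgt-KO was lost without either RORgt-KO library (0.77 and 0.72) and that in RORgt-Tbet-KO without RORgt-Tbet-KO replicate 1 (0.75). The peak of Klrg1, an inhibitory lectin-like receptor gene, had a log2 change of -1.14 ± 0.28 in RORgt-KO (limma adjusted p = 0.00702), a call lost without RORgt-KO replicate 2 (-0.82). That of Arg1, arginase 1, had -1.08 ± 0.25 in RORgt-Tbet-KO and -0.97 ± 0.23 in RORgt-RORa-KO. Gata3, a transcription factor of type 2 cells, had -0.58 ± 0.22 in RORgt-RORa-KO (limma adjusted p = 0.0455). The Gata3 call was lost without Control replicate 2 or 3 (-0.57 and -0.40), RORgt-RORa-KO replicate 2 or 3 (-0.45 and -0.58), or either RORgt-Tbet-KO library (-0.58 each). Peaks at ribosomal protein genes (22) held 5 higher and 1 lower in RORgt-RORa-KO, 2 higher in RORgt-Tbet-KO and none in RORgt-KO. Of 22 proteasome peaks, 3 rose in RORgt-RORa-KO and 1 in RORgt-Tbet-KO. In RORgt-RORa-KO that is 27.3 and 13.6% of these lists, beside 15.0% of gene-end peaks and 31.2% of all peaks.

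RORgt-Tbet-KO and RORgt-KO, which differ by the Tbx21 alleles, differed at 26 gene-end peaks (0.240%), against 1.14% of all peaks. Of these, 6 rose (background 0.179%) and 20 fell (background 0.965%) in RORgt-Tbet-KO against RORgt-KO. Centring on the median of gene-end peaks gave 42.9% higher calls, beside 23.1% as reported. Without a single library the share ranged from 0.0369 to 0.636%. Leaving out RORgt-KO replicate 1 gave 0.0553%, and the share was 0.0369% without RORgt-KO replicate 2, 0.0461 and 0.0738% without RORgt-Tbet-KO replicates 1 and 2, and 0.148, 0.636 and 0.378% without RORgt-RORa-KO replicates 1, 2 and 3.

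The largest decrease was at the start of Acod1, the itaconate-producing enzyme of macrophages. Its levels were 3.37 and 4.14 in RORgt-Tbet-KO libraries, 6.44, 7.49 and 6.70 in RORgt-RORa-KO, and 6.62 and 6.08 in RORgt-KO, beside 4.69, 4.28 and 5.43 in Control. The log2 difference of RORgt-Tbet-KO from RORgt-KO was -2.60 ± 0.41 (SE; limma adjusted p = 0.00052), a call lost without RORgt-KO replicate 1 (-2.32). The start of Samd3, a SAM domain gene, had levels of 3.50 and 4.20 in RORgt-Tbet-KO, against 5.99 and 6.04 in RORgt-KO, a difference of -2.16 ± 0.38 (limma adjusted p = 0.00184) that was lost without either RORgt-KO library (-2.19 and -2.13) or RORgt-Tbet-KO replicate 1 (-1.81). A peak 975 bp from the start of Vrk1, a nuclear kinase gene, had levels of 5.96 and 5.60 in RORgt-Tbet-KO, against 7.62 and 7.53 in RORgt-KO, at -1.80 ± 0.23 (3.77e-05), and kept its call in every refit that left out a library. Near an end of Stau2, an RNA-binding protein gene, the difference was -1.85 ± 0.27 (0.000173). At Acod1, Samd3, Vrk1 and Stau2, RORgt-KO was higher than Control, by 1.55 ± 0.37, 1.56 ± 0.35, 1.42 ± 0.21 and 1.53 ± 0.24 on the log2 scale, in libraries that the comparison with RORgt-Tbet-KO shares. The Acod1 rise was lost without RORgt-KO replicate 1 (1.28) and the Samd3 rise without RORgt-KO replicate 2 (1.53).

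Of the 6 rises, 5 were at 3′ ends. That near Irf2bp2, a transcriptional co-repressor gene, had levels of 7.68 and 7.39 in RORgt-Tbet-KO, against 6.47 and 5.78 in RORgt-KO, at 1.41 ± 0.28 (limma adjusted p = 0.00619), lost without RORgt-KO replicate 2 (1.06) or RORgt-Tbet-KO replicate 1 (1.26). The peak 100 bp from the 3′ end of Slc30a2, a zinc transporter gene, had levels of 8.52 and 8.28 in RORgt-Tbet-KO libraries, 6.42, 5.63 and 5.91 in RORgt-RORa-KO, and 7.45 and 7.27 in RORgt-KO, beside 7.21, 7.17 and 7.33 in Control. The double knockouts lay on opposite sides of both other groups. The rise of 1.04 ± 0.25 against RORgt-KO (limma adjusted p = 0.0269) was lost without any 1 of the 4 libraries (0.92 to 1.16), and the fall of 1.38 ± 0.22 in RORgt-RORa-KO against RORgt-KO (0.000614) was not.

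RORgt-RORa-KO and RORgt-KO, which differ by the Rora alleles, differed at 39 gene-end peaks (0.360%), against 1.47% of all peaks. Of these, 5 rose (background 0.331%) and 34 fell (background 1.14%) in RORgt-RORa-KO against RORgt-KO. The share was 0.175% without RORgt-KO replicate 1, 0.0553% without RORgt-KO replicate 2, 0.230% without RORgt-Tbet-KO replicate 2 and 0.544% without RORgt-RORa-KO replicate 3. A peak near an end of Dlc1 had levels of 5.29, 4.52 and 4.70 in RORgt-RORa-KO, 6.88 and 6.48 in RORgt-KO, and 7.91, 8.25 and 7.40 in Control. The log2 difference of RORgt-RORa-KO from RORgt-KO was -1.85 ± 0.27 (limma adjusted p = 0.000144). The peak at the 3′ end of Sfmbt2, a Polycomb-group gene, had levels of 5.48, 5.07 and 5.49 in RORgt-RORa-KO, against 6.94 and 7.03 in RORgt-KO, at -1.64 ± 0.23 (9.04e-05). A peak 923 bp from the start of Aars2, a mitochondrial alanyl-tRNA synthetase gene, fell by 1.82 ± 0.32 on the log2 scale (0.00149), lost without RORgt-KO replicate 2 (-1.69). The Il17f and Il23r peaks were also among the 34, and that of Il17f was lost without RORgt-KO replicate 2 (-1.13). The largest of the 5 rises was at the 3′ end of Gbp7, an interferon-induced guanylate-binding protein gene. Its levels were 7.42, 8.0 and 7.29 in RORgt-RORa-KO, against 6.55 and 6.08 in RORgt-KO, at 1.25 ± 0.30 (limma adjusted p = 0.0274). This call was lost without RORgt-KO replicate 1 (1.49) or 2 (1.02), or without RORgt-RORa-KO replicate 1 (1.33) or 2 (1.04).

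The 2 double knockouts differed from each other at 225 gene-end peaks (2.07%), against 7.54% of all peaks, with 94 higher (background 3.82%) and 131 lower (background 3.72%) in RORgt-RORa-KO against RORgt-Tbet-KO. Quantile normalization gave 54.6% higher calls, beside 41.8% as reported, and without RORgt-RORa-KO replicate 3 18.4% of 719 calls were higher. The share was 0.516 and 0.479% without RORgt-Tbet-KO replicates 1 and 2, 1.24% without RORgt-RORa-KO replicate 1 and 6.63% without RORgt-RORa-KO replicate 3. Among the 19 type 1 peaks 11 rose and none fell, with a list median of 0.89, beside -0.02 over all peaks. Among the 17 type 3 peaks 1 rose, at Cd93, and 4 fell, at Il17f, Il22, Il23r and Tnfsf11. Of 29 peaks at immediate early genes 4 fell, at Fosb, Jun, Junb and Nr4a3 (13.8%, beside 3.72% of all peaks lower). All 4 of these calls were lost without RORgt-Tbet-KO replicate 1 (-0.86, -0.82, -0.90 and -0.64). Those of Fosb, Junb and Nr4a3 were also lost without RORgt-Tbet-KO replicate 2 (-0.64, -0.48 and -0.69) or RORgt-RORa-KO replicate 2 (-0.54, -0.47 and -0.59). The Junb and Nr4a3 calls were lost without RORgt-RORa-KO replicate 1 (-0.64 and -0.57), and that of Junb without either RORgt-KO library or Control replicate 2 (-0.69 each). The difference was 3.12 ± 0.37 at Acod1, 2.36 ± 0.35 at Samd3, 1.98 ± 0.30 at Ifng, 1.72 ± 0.22 at Nkg7, and -2.42 ± 0.22 at the 3′ end of Slc30a2, all log2 with SE and all called. RORgt-RORa-KO replicates 1 and 2 had fewer reads in peaks than replicate 3 and both RORgt-Tbet-KO libraries. Over gene-end peaks, replicate 3 correlated at 0.968 and 0.967 with the RORgt-Tbet-KO libraries, and at 0.964 and 0.936 with its own group. Depth and genotype thus partly go together in this comparison, and the part of depth was not tested.

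Promoters under a gene-end peak differed in sequence from those without one. Of 15533 genes with a RefSeq promoter placed at a gene end, 49.5% had a gene-end peak over it. The 6990 peaks with a promoter had a median CpG observed over expected ratio of 0.80, against 0.25 in the 8361 promoters without a gene-end peak. The ETS word stood in 20.8% against 3.37%, the SP/KLF word GGGCGG in 70.6% against 26.4%, and the NRF1 word GCGCATGC in 6.28% against 1.34%. The RUNX word TGTGGTT stood in 3.58% against 5.87% and the AP-1 word TGANTCA in 4.23% against 9.76%. Both strands were searched. With promoter peaks in 3 groups of like size by CpG ratio, 14.2% of the lowest differed among the 4 groups of libraries, against 8.80% of the middle and 7.98% of the highest. In RORgt-KO against Control the shares were 3.05, 0.601 and 1.03%.

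Among promoters whose peak rose in RORgt-KO against Control, 4 of 59 (6.78%) held the T-box word, beside 0.787% of all promoters under a gene-end peak. The AP-1 word stood in 8 of these 59 (13.6%), beside 4.23% of all. Among those that fell in RORgt-Tbet-KO against RORgt-KO, the T-box word stood in 2 of 9, those of Nkg7 and Samd3 shown above. The ROR element and the AP-1 word also stood in 2 each of these 9, and the ETS word in 0. The T-box word stood in 4 of 42 promoters (9.52%) that were higher in RORgt-RORa-KO than in RORgt-Tbet-KO, and the AP-1 word in 5. Promoters under a gene-end peak held the T-box word in 0.787% of cases, the ROR element in 1.76%, the AP-1 word in 4.23% and the ETS word in 20.8%. The sets are small, and whether any word is over-represented in them was not tested. Of 569 promoters whose peak fell in RORgt-RORa-KO against Control, 4.04% held the ROR element, Il23r among them, beside 1.76% under all gene-end peaks. It also stood in 3.50% of the 371 that fell in RORgt-Tbet-KO against Control, and between the double knockouts in 5 of 42 that were higher and 4 of 55 that were lower in RORgt-RORa-KO. The Ifng promoter also held one, and its peak rose. The CCAAT word bound by NF-Y stood in 56.0% of the 400 promoters whose peak rose in RORgt-Tbet-KO, beside 40.8% of all under gene-end peaks. These shares are descriptions, with no test.

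For 2933 genes with a peak at the start and at least 1 peak inside the gene, the inside peaks were read beside the start. Where the start fell against Control, inside peaks fell and none rose in 42.4% of 33 genes in RORgt-KO libraries, 35.5% of 186 in RORgt-Tbet-KO and 36.9% of 309 in RORgt-RORa-KO. Over all 2933 genes those shares were 13.2, 14.8 and 20.3%. Where the start rose, inside peaks rose and none fell in 20.7% of 29 genes, 38.7% of 181 and 43.2% of 148, beside 13.2, 23.8 and 27.7% of all.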

How the data were processed

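ATAC-seq libraries of sorted small intestinal innate lymphoid cells were compared in 4 groups: RORgt-KO (2 libraries), RORgt-Tbet-KO (2), RORgt-RORa-KO (3) and Control (3). Per the submitters' processing notes, the processing named Trim Galore 0.62, Bowtie2 2.3.5.1, SAMtools and MACS2 with GRCm38, with no order or settings. The authors deposited 1 table of log2 scaled read values for 36262 peaks in 10 columns. Within 0.01, 100% of values stood at whole multiples of a library's smallest step, and empty peaks at 0.9 of it. The step gave the reads in peaks and the depth, 37 to 73 reads per peak at the median. Library shares are subject to counting error, and PCR copies are not independent.

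The 11 peaks on Y were left out. Gene ends came from the RefSeq GRCm38.p6 gene table, strands and sequences from its promoter table, which holds a strand for 79.8% of genes and was not complete. Peaks take the name of the nearest gene end. limma 3.58.1 in R 4.3.3, with a mean-variance trend, was fitted to the log2 values over all 4 groups, with 6 residual and 22.5 prior degrees of freedom and Benjamini-Hochberg adjustment over all 36251 peaks at 0.05, and tested on simulated data. No filter on low values was applied. Read shares were tested by exact permutation, two-sided through the F statistic. A level per kilobase is the level minus log2 of the width in kilobases. Named peaks are the 5 largest changes each way per comparison among called peaks whose groups did not overlap and whose mean level lay above the lowest 25% of peaks (1 per gene, predicted genes left out), up to 3 peaks with the smallest p per list and comparison, and the 5 highest and 5 least variable peaks. The ILC marker peaks were added after the values were seen. The members and gene lists were chosen with earlier results of these data known. Alternatives were 3 scalings by centring or quantiles, TMM factors on recovered reads with a prior count of 2, limma voom, no trend, library weights, a filter, 2-group fits, a replicate block, other distances and leaving out each library. Python 3 with pandas and matplotlib made the counts and figures.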

Additional observations from a re-analysis of the deposited data

How the results depend on the processing

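Shares of gene-end peaks called are given in % in this order: RORgt-KO against Control, RORgt-Tbet-KO against Control, RORgt-RORa-KO against Control, RORgt-Tbet-KO against RORgt-KO, RORgt-RORa-KO against RORgt-KO, RORgt-RORa-KO against RORgt-Tbet-KO, and the F test. Without the mean-variance trend they were 1.80, 4.93, 9.18, 0.0369, 0.0277, 0.738 and 5.63. With library weights those that moved were 4.91, 24.4, 5.80, 1.59, 9.03 and 23.6, with RORgt-RORa-KO against Control within 1.5 times. limma voom gave 0.498 and a fit of the 2 groups alone 6.93 for RORgt-Tbet-KO against RORgt-KO. Counting only peaks that overlap an end gave 2.08 for RORgt-KO against Control. Leaving out each library gave 0.894 to 4.49, 2.91 to 16.5, 9.79 to 18.8, 0.0369 to 0.636, 0.0553 to 0.544, 0.479 to 6.63 and 7.63 to 17.0; where this left 1 library in a group, it was assumed to vary like the others. For the share of reads in gene-end peaks p ran from 0.107 to 0.675, and for 3′ ends from 0.00675 to 0.0393 unadjusted, or 0.0202 to 0.118 adjusted over 3 shares, with the adjusted call lost in 5 of 10 refits. The cause was not tested.

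Whether replicate numbers pair the samples is not known. Deviations from the group mean correlated at -0.16 to 0.19 between same-numbered libraries of different groups at gene ends. Between libraries with other numbers they correlated at -0.20 to 0.20. In a group of 2 libraries the deviations mirror each other, so these correlations cannot decide it. With the replicate number as a block the shares were 5.21, 19.0, 16.6, 0.507, 0.396, 4.28 and 19.2, and 29.7% of the calls between the double knockouts were higher in RORgt-RORa-KO; a fit of those groups alone gave 55.3% and a fit without the trend 57.5%, beside 41.8% as reported. Over 240 calls at 103 named peaks and 20 refits, 4317 were kept, 480 lost and none changed direction. Depth was 37 to 73 reads per peak at the median.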
